A study of Drosophila melanogaster with 3 samples.

Results

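The genes described here serve the endoplasmic reticulum (ER), the compartment where secreted proteins are imported, cut, glycosylated and folded. They were chosen by name, 38 genes in 8 roles: signal recognition particle (SRP), SRP receptor, translocon, signal peptidase, oligosaccharyl transferase, chaperones, disulfide formation and the unfolded protein response. Of these, 37 were matched to rows of the 17278 genes measured, 35 of them by symbol. Spase18-21 was matched under its present symbol twr and Sec62 under Trp1. Pdi was not matched by its present identifier and was not analysed here.

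RNA was sequenced from salivary glands of L3 larvae of Drosophila melanogaster, in 3 libraries of 1 control group, replicates 1, 2 and 3. Each library came from 50 glands of flies kept at 25°C. The titles name an Oregon wild type, while the genotype field reads yw, and which stock was used is not resolved by the labels. No treatment is named, and nothing in the labels says that the 3 samples came from separate cultures, so that the spread between libraries may be technical.

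The third-instar salivary gland of the fly makes glue proteins in bulk and passes them through the ER into secretory granules. SRP binds the signal sequence of a nascent protein and brings the ribosome to its receptor, and the Sec61 channel lets the chain enter. Signal peptidase then removes the signal sequence, oligosaccharyl transferase adds N-linked sugars, and chaperones and disulfide enzymes fold the chain. Ire1, PEK and Atf6 sense unfolded protein and act through the transcription factors Xbp1, crc (the fly ATF4) and Atf6 itself.

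Values are FPKM as deposited, fragments scaled to gene length and to a factor per library, and differences are on the log2(FPKM + 1) scale. That factor was not the fragment total. It was recovered as 499875, 727436 and 945562 in replicates 1, 2 and 3, against 1509430, 1490257 and 1571524 fragments. The levels can therefore be read within these data, not against FPKM scaled to the library total. FPKM is per length, so that levels of different genes can be set side by side. Deviations by exon length remained and differed between libraries, as given below, so comparisons between genes of unlike length are approximate. Recovered fragments outside rRNA genes numbered 678714, 874004 and 1185541 in replicates 1, 2 and 3, and rRNA genes held 55.0% (95% Wilson interval 55.0% to 55.1%), 41.4% (41.3% to 41.4%) and 24.6% (24.5% to 24.6%) of all fragments. All 8 salivary gland markers were detected, with summed levels of 732238 to 982968 FPKM. Fat body markers, all 7 of them detected, summed to 2892, 4117 and 4306 FPKM in replicates 1, 2 and 3. Markers of hemocytes (14.7 to 36.6 FPKM summed, 2 of 7 detected), muscle (10.5 to 15.4, 2 of 6), trachea and cuticle (10.2 to 12.1, 2 of 5), nervous system (3.35 to 3.81, 1 of 5) and midgut (0 to 2.32, 0 of 5) were low. The midgut genes Jon65Aiii, alphaTry and betaTry and the synaptic gene nSyb were listed at 0 in every library. The fat body also secretes protein, and its part in the levels below was not tested.

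Most ER genes were present at high levels, and the stress sensors at low ones. At least 1 FPKM in every library was reached by 36 of 37 members, against 33.1% of all genes. A mean of at least 50 FPKM was reached by 27 members, against 5.55% of all genes. The median member had 172 FPKM, and the median of the 5711 detected genes was 11.6 FPKM. Of the members, 25 lay in the highest 10% of detected genes. By means over libraries, the list stood 6.96 above the median of other genes on the log2(FPKM + 1) scale. Taken library by library, that difference had an SD of 0.67 (n = 3). The median of all genes was only 0.363 FPKM. Where genes under a mean of 1 FPKM were left out, the list stood 4.26 above the median. Members took 0.625%, 0.639% and 0.967% of the summed FPKM outside rRNA genes in replicates 1, 2 and 3. By fragments, they took 1.31% (95% Wilson interval 1.29% to 1.34%), 1.27% (1.24% to 1.29%) and 1.96% (1.94% to 1.99%).

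**Figure D1:**
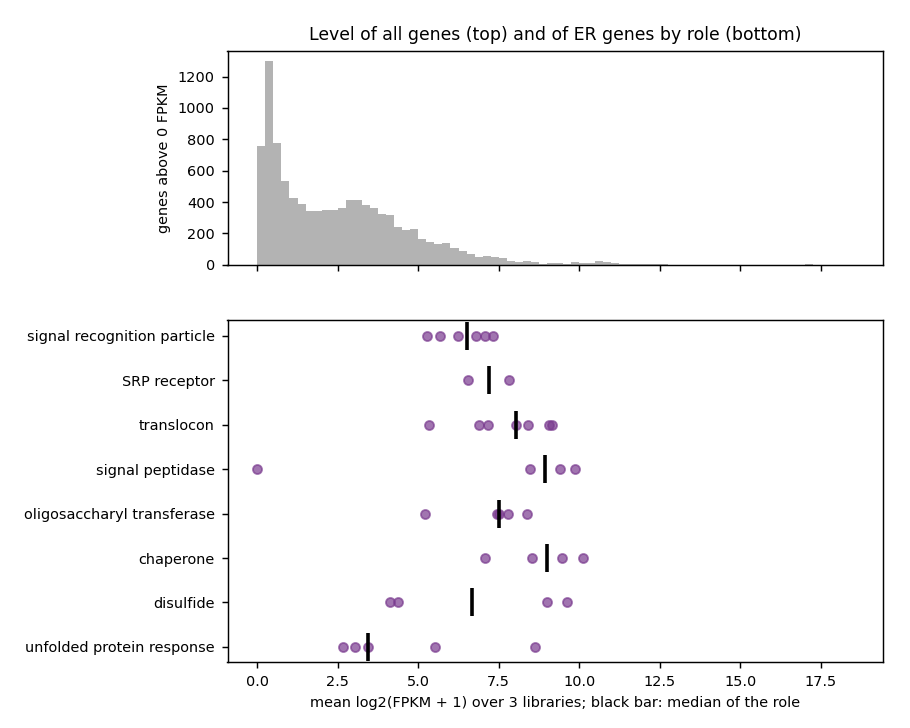
Mean log2(FPKM + 1) over 3 libraries for all genes above 0 FPKM (histogram, number of genes) and for the 37 ER genes by role (1 point a gene, black bar the median of the role). Chaperones and the detected signal peptidase genes lie far to the right, and Ire1, PEK and Atf6 form the low end, with Spase12 listed at 0.

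Roles differed in level. The median was 555 FPKM for the 4 chaperones, 526 for the 4 signal peptidase genes with Spase12 at 0, 281 for the 4 disulfide genes, 276 for the 7 translocon genes and 201 for the 5 oligosaccharyl transferase genes. It was 163 for the 2 SRP receptor genes, 93.4 for the 6 SRP genes and 9.77 for the 5 genes of the unfolded protein response.

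**Figure D2:**
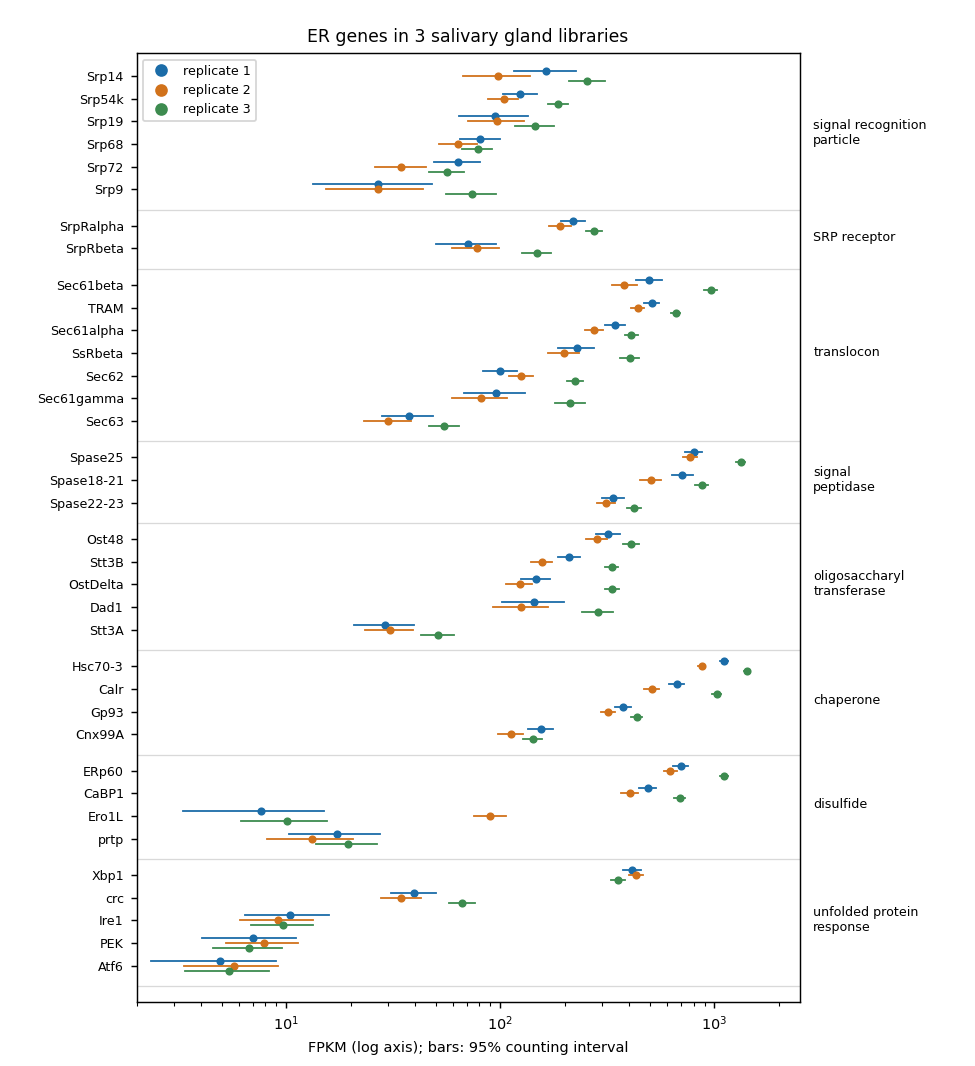
FPKM of each detected ER gene in replicates 1, 2 and 3 (colours), by role, on a log axis with 95% counting intervals as bars. Replicate 3 is the highest library for most genes, Ero1L stands apart in replicate 2, and the intervals of Ire1, PEK and Atf6 overlap among libraries.

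The SRP is an RNA with proteins bound to it, and its protein genes ranged from 42.3 FPKM on average for Srp9 to 172 for Srp14. Srp14, which with Srp9 forms the part that slows translation, had 164, 97.8 and 255 FPKM in replicates 1, 2 and 3. Srp9 had 26.8, 26.8 and 73.4 FPKM from 84 fragments, and its mean of 42.3 ± 26.9 (SD, n = 3) fell to 26.8 without replicate 3. Srp9 was below Srp14 in every library, although the proteins are known as a dimer. Srp54k, the GTPase that binds the signal sequence, had 124, 104 and 186 FPKM. Srp19, which helps Srp54k join the RNA, had 94.97, 96.8 and 146 FPKM. Both were highest in replicate 3, like Srp14 and Srp9. Srp68 had 80.7, 63.8 and 78.4 FPKM and Srp72, its partner, 63.3, 34.5 and 56.6. This pair was highest in replicate 1 and lowest in replicate 2, but for both genes the counting intervals of replicates 1 and 3 overlapped. Srp14 shared 17.7% of its exon bases with CG34008.

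The SRP RNA itself is encoded by 7SL genes, which are no members of the list. 7SLRNA:CR42652 (BDGP6.54, chromosome 3R, 6820131 to 6820429) was measured at 703, 69.0 and 38.9 FPKM, from 105, 15 and 11 fragments. 7SLRNA:CR32864 (3R, 6822500 to 6822798) was measured at 549, 133 and 21.2 FPKM, from 82, 29 and 6 fragments. Both were highest in replicate 1 and lowest in replicate 3. Srp68 and Srp72 were also highest in replicate 1, though within counting error of replicate 3. None of the 6 SRP protein genes was lowest in replicate 3. 7SL RNA is made by RNA polymerase III and lacks a regular poly(A) tail, and the libraries were of poly(A) RNA. The share of rRNA genes was 55.0%, 41.4% and 24.6% in the same libraries, and its part in the 7SL levels was not tested. Fragments that fit both copies make the level of each uncertain.

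The SRP receptor has a soluble and a membrane subunit. SrpRalpha, the GTPase that meets SRP, had 219, 191 and 274 FPKM. SrpRbeta, its membrane anchor, had 70.5, 77.5 and 148 FPKM. SrpRalpha was the higher in every library, and both were highest in replicate 3.

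Translocon genes were led by Sec61beta and TRAM. Sec61alpha (2L 6477182 to 6480575), which forms the channel, had 344, 274 and 409 FPKM. Sec61beta (2R 14618771 to 14619681), a small tail-anchored subunit, had 498, 380 and 961 FPKM. Sec61gamma (X 19643327 to 19644518), the other small subunit, had 95.3, 81.0 and 212 FPKM. The level of Sec61alpha therefore lay between those of its small subunits in all 3 libraries. TRAM, a membrane protein beside the channel, had 510, 439 and 660 FPKM. SsRbeta, a subunit of the translocon-associated complex, had 227, 198 and 402 FPKM. Sec62 and Sec63 act in import after translation and in the recruitment of BiP. Sec62 (Trp1) had 100, 125 and 225 FPKM, and Sec63, the lowest of the translocon genes in every library, had 37.4, 29.9 and 54.6. All 7 translocon genes were highest in replicate 3. Sec63 shared 60.7% of its exon bases with an antisense RNA gene, asRNA:CR45835, listed at 0, so its level is uncertain.

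Signal peptidase genes were among the highest members, apart from a gene that could not be read. Spase25 (X 11485250 to 11486566), an accessory subunit, had 800, 770 and 1326 FPKM and ranked 134 among detected genes. Spase18-21 (twr), the catalytic subunit, had 709, 506 and 872 FPKM. Spase22-23, another accessory subunit, had 337, 312 and 421 FPKM. Spase12 was listed at 0 in every library. All exon bases of Spase12 lay in exons of other annotated genes, most of them of CG2006, so its level is not known. Spase18-21 shared 44.3% of its exon bases and Spase22-23 30.6%.

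Oligosaccharyl transferase comes in forms built on the catalytic subunits Stt3A and Stt3B, known in mammals for acting during and after translocation, respectively. Stt3B had 210, 156 and 332 FPKM, and Stt3A 29.0, 30.4 and 51.1. Stt3A minus Stt3B was -2.60 ± 0.25 on the log2 scale (SD, n = 3), more than the spread between libraries, and Stt3B was the higher in each of them. The shared subunits lay nearer to Stt3B. Ost48 had 319, 283 and 408 FPKM, OstDelta 146, 123 and 333, and Dad1, a small membrane subunit also known from apoptosis, 145, 125 and 286. The levels of Stt3A were the lowest of the 5 genes in every library, and all 5 were highest in replicate 3.

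Chaperones included the highest member. Hsc70-3 (X 11801696 to 11807117) encodes BiP, the ER Hsp70, and had 1109, 871 and 1418 FPKM from 9076 fragments, rank 121 among detected genes. Gp93, the ER Hsp90, had 375, 319 and 434 FPKM. Calr, the soluble lectin calreticulin, had 668, 510 and 1026 FPKM. Cnx99A, calnexin, its membrane-bound counterpart, had 155, 112 and 142 FPKM. Each chaperone was lowest in replicate 2, and Cnx99A was highest in replicate 1, the others in replicate 3. For Cnx99A the counting intervals of replicates 1 and 3 overlapped.

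Enzymes of disulfide formation fell into a high and a low pair. ERp60, a protein disulfide isomerase, had 696, 623 and 1110 FPKM, and CaBP1, another of that family, 487, 402 and 691. prtp (pretaporter), a thioredoxin-domain protein known for a role in the engulfment of dying cells, had 17.4, 13.3 and 19.4 FPKM from 76 fragments.

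Ero1L (3L 4170404 to 4173789) encodes the oxidase that passes electrons from the isomerases to oxygen, and its libraries stood farther apart than those of the other detected members. It had 7.62, 89.7 and 10.1 FPKM in replicates 1, 2 and 3, from 8, 137 and 20 fragments. The highest library was 11.8 times the lowest, against at most 2.74 times in other detected members. The 95% exact intervals ran from 3.29 to 15.02 FPKM, from 75.3 to 106 and from 6.15 to 15.6, in the same order. The interval of replicate 2 lay apart from both others, while those of replicates 1 and 3 overlapped. The mean of 35.8 FPKM became 8.85 without replicate 2. Ero1L shared no exon base with another gene. Its neighbours within the table, nab, mas, lncRNA:CR44529, CG18675, Teh4 and Teh2, held at most 1 fragment in any library. A level at least 5 times that of each other library occurred in 1 of 33 members of at least 10 FPKM on average, and in 1.63% of all genes of that level. In 0.971% of genes of that level, as in Ero1L, replicate 2 was that library. Ero1L reached a mean of 10 FPKM through replicate 2 alone, the library described, so that its count among the 33 members follows from that value.

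Ire1, PEK and Atf6, the sensors of the unfolded protein response, had the lowest levels of the detected members. Ire1, the kinase and nuclease that splices Xbp1 mRNA, had 10.4, 9.20 and 9.70 FPKM, and shared 12.3% of its exon bases, most of them with MICU3. PEK, the kinase that phosphorylates eIF2alpha, had 6.98, 7.90 and 6.73 FPKM. Atf6, a membrane-bound transcription factor, had 4.90, 5.72 and 5.44 FPKM. They rest on 85, 76 and 48 fragments, respectively, and differences between libraries were not detectable at this depth. Xbp1 (2R 21143545 to 21145750) had 412, 430 and 354 FPKM, and was lowest in replicate 3. The table has a single value per gene, so spliced and unspliced Xbp1 mRNA cannot be told apart. crc had 39.7, 34.5 and 66.4 FPKM, and 73.5% of its exon bases were shared, most of them with CG46314.

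Levels of partners were compared within libraries for 15 pairs of genes that act in a complex or a step. In each pair the same gene was higher in 3 of 3 libraries. With n = 3 the two-sided exact sign-flip permutation test cannot go below p = 0.25, and each pair had p = 0.25 and an adjusted p of 0.25, so that no pair could pass. By fragments per exon base over all libraries, the 95% exact interval of the ratio excluded 1 in 14 pairs, which concerns counting error only. The exception was Ire1 over PEK, at 1.35 (0.98 to 1.87). CaBP1 exceeded prtp by the largest ratio, 32.4 (25.8 to 41.3). Xbp1 over crc was 7.92 (7.07 to 8.88), Calr over Cnx99A 5.72 (5.29 to 6.19), and Hsc70-3 over Gp93 3.05 (2.91 to 3.19). SrpRalpha over SrpRbeta was 2.19 (1.91 to 2.52), and Stt3A over Stt3B 0.160 (0.138 to 0.183). Ire1 over Atf6 was 1.79 (1.24 to 2.61), and Srp68 over Srp72 1.46 (1.23 to 1.73).

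Ratios were also compared between libraries. Hsc70-3 over Gp93 was 2.95 (95% exact interval 2.68 to 3.26), 2.73 (2.50 to 2.98) and 3.27 (3.07 to 3.49) in replicates 1, 2 and 3, and the intervals of replicates 2 and 3 did not overlap. Stt3A over Stt3B was 0.138, 0.195 and 0.154, with intervals that overlapped. Sec61beta over Sec61alpha was 1.45 (95% exact interval 1.21 to 1.72), 1.39 (1.17 to 1.64) and 2.35 (2.12 to 2.60). Ost48 over OstDelta was 2.18 (1.78 to 2.68), 2.30 (1.91 to 2.76) and 1.23 (1.10 to 1.37). Calr over Cnx99A was 4.32 (3.69 to 5.08), 4.55 (3.90 to 5.32) and 7.23 (6.46 to 8.11). In these last pairs the interval of replicate 3 lay apart from both others. The same held for Sec61gamma over Sec61alpha, at 0.277, 0.296 and 0.518, and for Xbp1 over crc, at 10.4, 12.4 and 5.33. Shorter genes in general deviated upwards in replicate 3, as given below. Sec61beta and Sec61gamma (792 and 798 exon bases) are shorter than Sec61alpha (2128), and Calr (1677) than Cnx99A (2795). Their ratios were highest in replicate 3. Ost48 (1513) is shorter than OstDelta (2201), and Xbp1 (2142) than crc (3423), but these ratios were lowest there. The part of exon length was not tested. Fragments of genes with shared exons may be undercounted, which touches Srp9 over Srp14 (0.259, 0.198 to 0.338), Sec63 over Sec62 (0.260, 0.226 to 0.299), Spase18-21 over Spase22-23 (1.95, 1.81 to 2.11), Xbp1 over crc, Ire1 over PEK and Ire1 over Atf6.

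**Figure D3:**
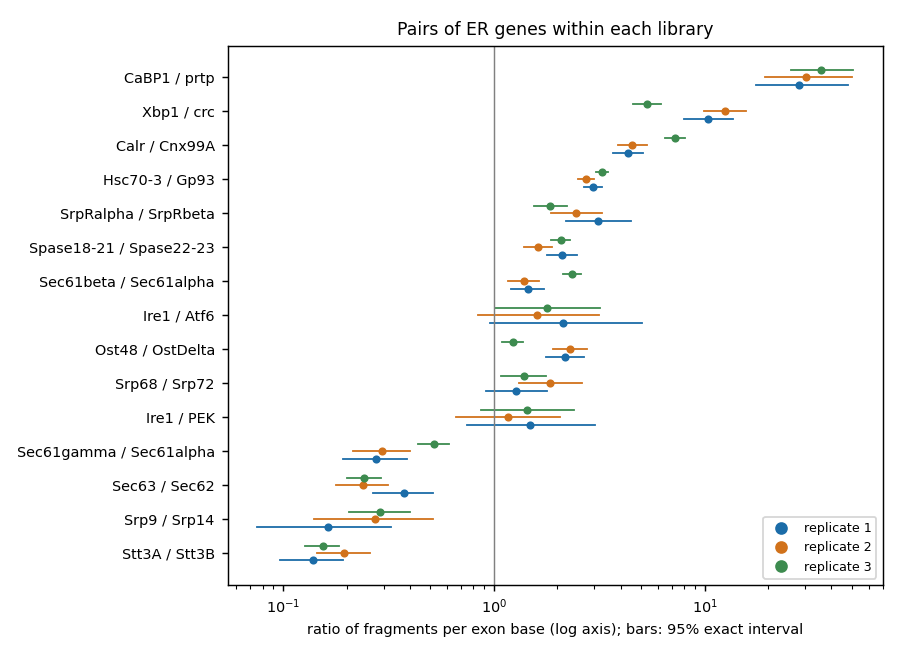
Ratio of fragments per exon base for 15 pairs of ER genes within replicates 1, 2 and 3 (colours), on a log axis with 95% exact intervals as bars and a line at a ratio of 1. CaBP1 over prtp lies farthest to the right, from 28.1 to 35.6, Stt3A over Stt3B farthest to the left, and Sec61beta over Sec61alpha, Sec61gamma over Sec61alpha, Calr over Cnx99A, Ost48 over OstDelta and Xbp1 over crc have replicate 3 apart from the other libraries.

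ER genes moved together between libraries. Their median deviation from each gene's own mean was -0.075, -0.29 and 0.40 on the log2 scale in replicates 1, 2 and 3, a range of 0.693. The range was 0.203 without replicate 3. Genes of at least 10 FPKM on average deviated by 0.0094, -0.035 and 0.042, and 92 cytosolic ribosomal protein genes, taken by symbol, by 0.017, 0.0091 and -0.0092. As deposited, the median of detected genes was 3.61 on the log2 scale in replicates 1, 2 and 3. A median deviation near 0 for genes in general follows from that scale. Of the 33 members of at least 10 FPKM (all matched ones but Ire1, PEK, Atf6 and Spase12), 28 were highest in replicate 3, against 42.6% of all genes of that level. Highest in replicate 1 were 3 members (Srp68, Srp72 and Cnx99A), against 26.6% of genes, and highest in replicate 2 were 2 (Xbp1 and Ero1L), against 30.8%. Counting intervals of replicates 1 and 3 overlapped in Srp68, Srp72 and Cnx99A, and those of replicates 1 and 2 in Xbp1. Replicate 2 was the lowest library for 27 members, against 37.1% of genes. The counting intervals of the lowest and the highest library lay apart for 30 of 33 members, against 42.5% of genes. This call depends on the number of fragments. The median level was 172 FPKM for all matched members and 26.6 FPKM for genes of at least 10 FPKM. The median ratio of the highest to the lowest library was 1.78 for the 33 members and 1.69 for those genes. For ribosomal protein genes of that level it was 1.19, with intervals apart for 56 of 82.

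By role, the deviation in replicate 3 was 0.61 for the translocon, 0.58 for oligosaccharyl transferase, 0.47 for the SRP receptor and 0.44 for SRP. It was 0.32 for disulfide genes, 0.30 for signal peptidase, 0.28 for chaperones and -0.0081 for the unfolded protein response. That last median is the value of Ire1, from 37 fragments, and the role was split, with crc at 0.55 and Xbp1 at -0.17. The largest single values were those of Srp9 (0.95), OstDelta (0.87) and Sec61gamma (0.84). In the same libraries, fat body markers deviated by -0.50, 0.015 and 0.48 at the median, but the list was split. Lsp1alpha, Lsp1beta, Lsp1gamma and apolpp were highest in replicate 3, and Lsp2, Fbp1 and Fbp2 in replicate 2. Fbp1 deviated by 0.48, 0.98 and -1.45. The rRNA genes held 55.0%, 41.4% and 24.6% of fragments. The part of fat body and of rRNA in the deviation of ER genes was not tested. In whole glands, a difference in the number of cells of a type and a difference in RNA per cell cannot be told apart.

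**Figure D4:**
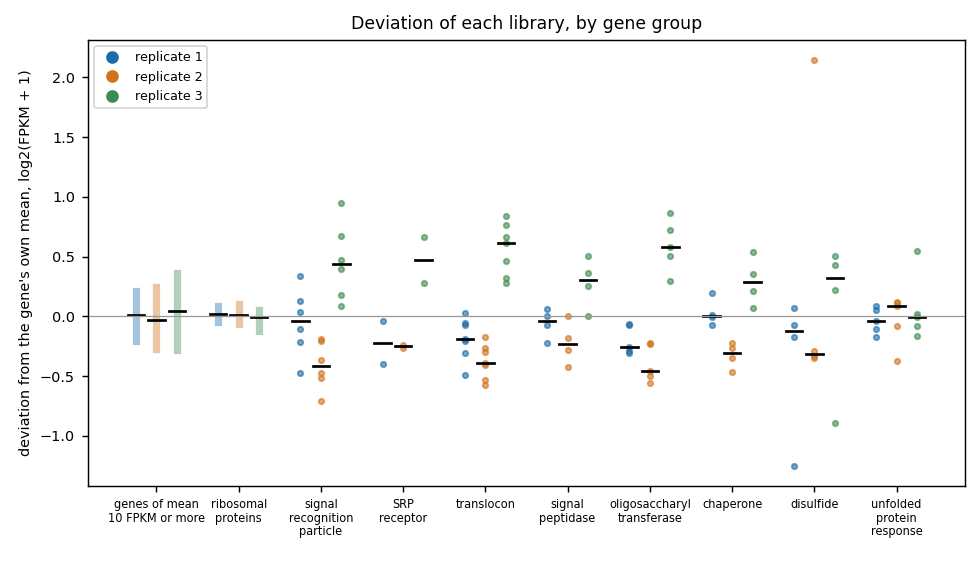
Deviation of each library from the gene's own mean log2(FPKM + 1). Bars for genes of at least 10 FPKM and for ribosomal protein genes span the quartiles, points are single ER genes by role, and black lines are medians. Replicate 3 lies above 0 at the median of each role but the unfolded protein response, where crc lies at 0.55 and Xbp1 at -0.17. The high point of replicate 2 among disulfide genes is Ero1L.

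Exon length also moved with the libraries. Genes with under 1000 exon bases (640 genes of at least 10 FPKM) deviated by 0.26 in replicate 3, those from 1000 to under 2000 by 0.13, those from 2000 to under 3000 by 0.013 and those of 3000 or more by -0.13. ER genes deviated more within each class, by 0.69 (8 genes), 0.50 (7 genes), 0.28 (16 genes) and 0.45 (2 genes). Of the 33 members, 31 lay above the median of their own length class in replicate 3. By definition, as many genes of a class lie above its median as below it. The median members of the classes lay below it in replicate 2 throughout, for example at -0.47 against -0.10 under 1000 bases. With the class median subtracted, the members' deviations were -0.082, -0.30 and 0.31. Ribosomal protein genes under 1000 bases (47 genes) deviated by -0.0073 in replicate 3.

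**Figure D5:**
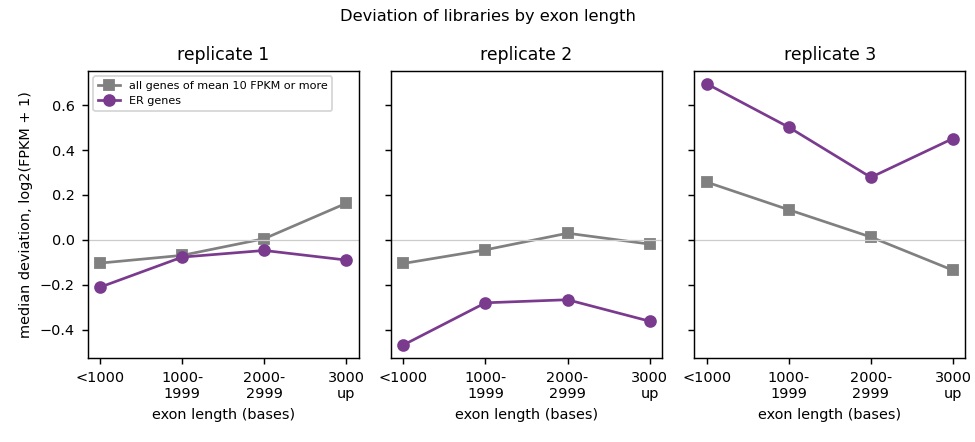
Median deviation of each library by exon length, for all genes of at least 10 FPKM on average (grey) and the 33 ER genes of that level (purple). In replicate 3 the grey line falls from 0.26 to -0.13 with length, and the purple line lies above it in every class; in replicate 2 the purple line lies below.

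Of 48 further ER genes listed, 43 were matched and 39 were detected in every library. Their median was 33.4 FPKM. Of the 37 with at least 10 FPKM, 22 were highest in replicate 3, against 42.6% of all genes of that level. Highest in replicate 2 were 9, against 30.8%. Lowest in replicate 2 were 19, against 37.1%, and lowest in replicate 3 were 12, against 35.9%. The 43 matched genes deviated by -0.018, -0.16 and 0.21 in replicates 1, 2 and 3.

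Among other genes of insertion and glycosylation (10 matched), Ostgamma was highest, at 309, 259 and 535 FPKM, followed by CG33303 at 96.0, 76.0 and 193. EMC3 (18.7, 9.98 and 21.9) and EMC5 (0, 8.38 and 10.7), subunits of the ER membrane complex, were lowest, and EMC5 rested on 8 fragments. Among other folding genes (17 matched), KdelR, the receptor that returns chaperones from the Golgi, had 537, 451 and 993 FPKM. Manf, the gene of an ER-resident neurotrophic factor, had 215, 204 and 487. Both had the pattern of most members, with replicate 3 highest and replicate 2 lowest. Cnx14D, a calnexin paralogue, had 0, 0.561 and 0.432 FPKM from 2 fragments, and ninaA, known for rhodopsin folding in the eye, was listed at 0 with all of its exon bases shared.

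Genes of ER-associated degradation (9 matched, all detected) had narrower levels, from 11.7 to 81.6 FPKM. Der-2 had 80.6, 79.1 and 85.2 FPKM and Der-1 82.1, 53.1 and 91.9. Both encode derlins, membrane proteins of the export of misfolded protein. Edem1, a mannosidase-like protein, had 14.3, 17.6 and 14.9 FPKM, and Npl4, a cofactor of the p97 ATPase, 11.3, 7.22 and 16.7. The group's median deviation was 0.019, -0.16 and 0.13.

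Among other genes of stress signalling (7 matched), Thor, the 4E-BP translation inhibitor, had 1386, 1526 and 612 FPKM and was lowest in replicate 3. CrebA, a transcription factor known in the fly to activate secretory pathway genes, had 81.4, 91.1 and 209 FPKM and was highest there. Atf3 had 5.98, 2.74 and 7.98 FPKM, and Gcn2, an eIF2alpha kinase like PEK, 1.39, 0.957 and 0.921. Most members and CrebA were highest in replicate 3, and with 3 libraries no relation between them could be tested.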

How the data were processed

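RNA of salivary glands was sequenced in 3 libraries. The deposited table gives FPKM that the authors computed per FlyBase gene. Per the submitters' processing notes, HISAT2 and DESeq were used. The table's name marks unstranded counting, although the kit is directional. No source used here gives the build, the annotation or the counter, and overlapping and antisense genes are therefore uncertain.

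Of 17278 identifiers, 17142 were found in the Ensembl annotation of BDGP6.54 (release 115), and synonyms came from RefSeq. Each FPKM times the summed exon length was a whole multiple of 1 step per library, within 0.01, for 98.7% to 98.8% of values above 0. Fragments recovered this way gave depth and intervals, and no count model was fitted. At 2000 exon bases, a fragment was worth 1.00, 0.687 and 0.529 FPKM in replicates 1, 2 and 3. Intervals of 95% were Wilson for shares and exact for levels and ratios, and cover counting error only.

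Levels used log2(FPKM + 1), which understates differences of low genes. Pairs were compared by an exact sign-flip permutation test with Benjamini-Hochberg adjustment. All members were named, with the 2 highest and 2 lowest of each group of other ER genes. Members and lists were chosen with earlier results of these data known, and the length classes and the counts by library were chosen after the values were seen. Alternatives were another pseudocount, other scalings, filters and libraries left out. Computations used scipy 1.17.1, pandas 2.3.3 and numpy 2.4.6 under Python 3.11.15, and figures matplotlib 3.10.9.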

Additional observations from a re-analysis of the deposited data

How the results depend on the processing

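The level of ER genes above other genes, 6.96 on the log2 scale, was 9.36 with a pseudocount of 0.1, 6.08 as TPM and 4.26 where genes under a mean of 1 FPKM were left out, and the cause was not tested. It ranged from 6.67 to 7.44 with a library left out. The range between libraries, 0.693, was 1.14 as TPM, whose sums include rRNA genes and which shifted genes of at least 10 FPKM by -0.37, 0.081 and 0.29 in replicates 1, 2 and 3. It was 0.573 as TPM without rRNA genes, which shifted them by -0.11, 0.099 and 0.023, and lay between 0.203 and 0.728 with a library left out, lowest without replicate 3. In every library, 36 members reached 0.1 FPKM (37.6% of all genes), 36 reached 5 fragments (24.5%) and 32 reached 10 FPKM (13.9%). Replicate 3 was highest for 31 of 33 members as TPM (60.7% of genes), 29 as TPM without rRNA genes (40.8%), 28 by median ratios (40.7%) and 27 by median ratios within length classes (38.3%), and for 28 of 36 without a filter (36.4%). Each of the 75 values of the 15 pairs under other settings had the same sign. These settings could not change it, since in each pair the same gene was higher in every library. The pairs with Pdi were not run, since Pdi was not matched. No paired analysis was possible because the series has 1 group. Depth limits Ire1, PEK, Atf6, prtp and Srp9, with 48 to 85 fragments each.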
